A study of Mus musculus with 12 samples.

Results

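The genes of calcium storage, release and reuptake by the sarcoplasmic reticulum were followed in embryonic mouse hearts with a conditional deletion of *Hira*, which encodes a histone chaperone, and in control hearts: *Casq1*, *Casq2*, *Trdn*, *Jph2*, *Ryr1*, *Ryr2*, *Atp2a1*, *Atp2a2*, *Pln* and *Sln*. They were chosen by their function, as cardiac and skeletal muscle paralogs with their partners, and all 10 were found by symbol among the 19424 genes with recovered counts. The choice was made with the comparison of mutant and control hearts at E12.5 known. The members' values in that comparison are therefore a description and carry no p-value. Gene lists and tests were also chosen with earlier results of these data known. The p-values of the other comparisons may therefore not be independent of the choice. The mutant hearts were *Mesp1Cre*;*Hira*-/fl, with 1 null and 1 conditional *Hira* allele, and the control hearts were *Mesp1Cre*;*Hira*+/fl, which carry the same Cre and the same conditional allele with 1 wild-type allele. Control and mutant hearts of the CD1 strain were collected at E11.5 and at E12.5, and each of the 4 groups had 3 RNA-seq libraries. *Mesp1Cre* acts in the early cardiac mesoderm, so that heart cells of other origin, such as those of the neural crest, keep HIRA. Tissue was whole heart, and in such tissue fewer cells of a type and less RNA per cell cannot be told apart.

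In a muscle cell, calcium is stored in the sarcoplasmic reticulum bound to calsequestrin, is released through ryanodine receptors to start contraction, and is pumped back by the SERCA ATPases to end it. Heart muscle of the adult uses calsequestrin 2 (*Casq2*), the ryanodine receptor RYR2 and the pump SERCA2 (*Atp2a2*), whereas fast skeletal muscle uses calsequestrin 1 (*Casq1*), RYR1 and SERCA1 (*Atp2a1*). Phospholamban (*Pln*) and sarcolipin (*Sln*) are small membrane proteins that restrain the pump, the former known from the ventricle and slow muscle and the latter from the atrium and skeletal muscle. Triadin (*Trdn*) ties calsequestrin to the ryanodine receptor, and junctophilin 2 (*Jph2*) holds the reticulum close to the cell membrane.

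The start sites of the calsequestrin and ryanodine receptor genes are shown first, because in both families the skeletal and the cardiac paralog had different values across the 4 groups. Each window holds 250 bases before and 50 bases after the start, read 5′ to 3′ on the strand of the gene, from RefSeq on GRCm38.p6. Capitals mark matches on either strand to CANNTG (the E-box, bound by helix-loop-helix factors), CTANNNNTAG (the MEF2 type), AAGTG (the core of the NKX2-5 site) or GAGAGA (the GAGA type), and 1 match may overlap another. *Casq1* lies at chr1:172219846-172220145 on the - strand, *Casq2* at chr3:102086165-102086464 on the + strand, *Ryr1* at chr7:29125102-29125401 on the - strand and *Ryr2* at chr13:12106896-12107195 on the - strand.
Casq1: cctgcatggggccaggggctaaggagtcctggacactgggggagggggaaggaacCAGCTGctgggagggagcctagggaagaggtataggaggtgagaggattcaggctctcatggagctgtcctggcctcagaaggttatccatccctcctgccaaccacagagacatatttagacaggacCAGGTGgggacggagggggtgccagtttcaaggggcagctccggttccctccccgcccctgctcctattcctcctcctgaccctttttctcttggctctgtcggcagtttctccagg
Casq2: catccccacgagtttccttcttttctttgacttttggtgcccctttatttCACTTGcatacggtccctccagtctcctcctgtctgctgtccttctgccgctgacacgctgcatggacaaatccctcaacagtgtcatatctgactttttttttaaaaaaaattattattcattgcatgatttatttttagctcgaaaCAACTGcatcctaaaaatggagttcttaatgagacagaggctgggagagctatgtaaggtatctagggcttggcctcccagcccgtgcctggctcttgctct
Ryr1: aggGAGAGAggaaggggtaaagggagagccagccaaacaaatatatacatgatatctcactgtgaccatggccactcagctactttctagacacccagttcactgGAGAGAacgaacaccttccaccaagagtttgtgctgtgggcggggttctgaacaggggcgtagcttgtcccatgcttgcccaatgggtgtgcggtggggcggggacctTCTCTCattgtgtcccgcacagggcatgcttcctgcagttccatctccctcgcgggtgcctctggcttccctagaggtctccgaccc
Ryr2: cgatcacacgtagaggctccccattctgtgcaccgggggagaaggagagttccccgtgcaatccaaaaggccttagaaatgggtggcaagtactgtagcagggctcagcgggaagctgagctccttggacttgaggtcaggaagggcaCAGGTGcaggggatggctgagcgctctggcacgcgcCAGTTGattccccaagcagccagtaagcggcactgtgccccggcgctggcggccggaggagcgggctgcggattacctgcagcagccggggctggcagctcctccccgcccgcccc

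An E-box was in 72.3% of all 32851 windows of mice in that table, the MEF2 type in 3.69%, the NKX2-5 core in 46.4% and the GAGA type in 23.9%. *Casq1* held 2 E-boxes and none of the other motifs. *Casq2* held 2 E-boxes, 1 of which overlaps its 1 NKX2-5 core. *Ryr1* held 3 matches to the GAGA type and no E-box, and *Ryr2* held 2 E-boxes. The GC content of the windows was 60.3% in *Casq1*, 44.7% in *Casq2*, 56.7% in *Ryr1* and 65.3% in *Ryr2*, against a median of 52.7% over all windows. Windows were found for 7 of the 10 genes. Of those not printed, the window of *Atp2a1* also held 3 matches to the GAGA type, with 1 E-box. Those of *Pln* and *Jph2* held no match to the GAGA type. These matches describe the letters of the windows and do not show that a factor binds there.

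Between 11994148 and 17483982 reads per library lay on genes. *Hira* itself had 57.0 to 86.5 CPM (read counts scaled to a common library size, with TMM factors) in the 12 libraries, with overlapping ranges of mutants and controls at both stages, and the counts of whole genes cannot show the loss of single exons. Y-linked genes were read in 3 of 3 control and 1 of 3 mutant libraries at E11.5 and in 1 of 3 libraries of each genotype at E12.5, so sex overlaps with genotype at E11.5 and with stage in the controls. Libraries with such reads are called male here and the others female. The number of hearts per library is not stated, so a male library may also hold female hearts. The 8 cardiomyocyte markers summed to 17762 to 25685 CPM over the 12 libraries, and none passed the test in any comparison. Of 4 erythroid markers, 3 fell in mutant hearts at E12.5 (edgeR), when the list summed to 1731 to 2231 CPM in mutant and 3278 to 5109 CPM in control hearts. Their part in the values below was not tested.

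The 10 genes spanned over 3 orders of magnitude. To compare genes, levels are given per length as RPKM (reads scaled to gene length and to library size). In E12.5 control hearts *Pln* stood at 321.9 ± 28.8 RPKM (SD, n = 3) and *Atp2a2* at 311.4 ± 13.7, and the libraries of both genes overlapped. *Casq1* followed at 150.4 ± 57.5, *Casq2* at 65.4 ± 12.4 and *Jph2* at 54.5 ± 3.76, where *Casq2* and *Jph2* overlapped. *Ryr2* at 32.5 ± 6.84 and *Trdn* at 31.0 ± 3.93 overlapped as well. The order ended with *Sln* at 7.54 ± 7.11, *Atp2a1* at 0.736 ± 0.408 and *Ryr1* at 0.0566 ± 0.00906, each apart from its neighbours. The skeletal calsequestrin gene was thus more abundant per length than the cardiac one in control hearts. In mutant hearts *Casq1* stood among the 3 most abundant members, at 288.4 ± 68.9 RPKM at E11.5 and 296.3 ± 70.9 at E12.5, and overlapped there with *Pln* and *Atp2a2*. By this measure 97.2% of the 17827 genes with reads lay below *Casq1* in E12.5 controls and 19.1% lay below *Ryr1*.

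**Figure D1:**
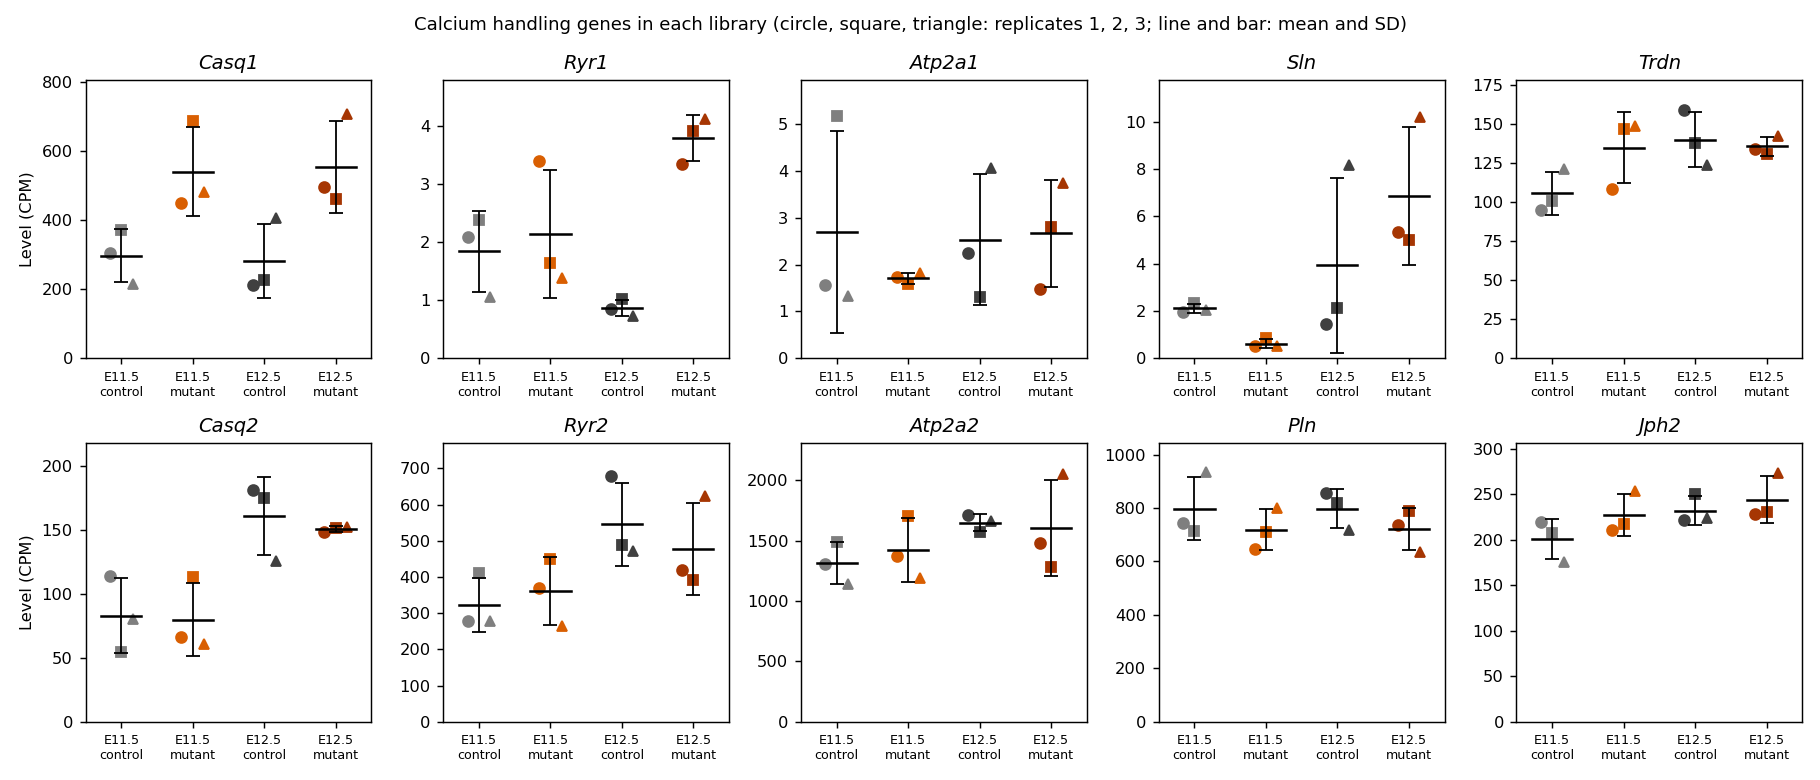
Level in CPM (linear axis from 0) of the 10 calcium handling genes in each of the 12 libraries, by stage and genotype, with a line and bar for the mean and SD of 3 libraries. *Casq1* is higher in every mutant than in every control library at both stages, *Ryr1* is so at E12.5, and *Casq2* and *Ryr2* are higher in E12.5 than in E11.5 controls.

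*Casq1*, which encodes the main calcium buffer of the skeletal muscle reticulum, lies on chromosome 1 from 172209894 to 172219868 (GRCm38, - strand), and 156 of its exonic bases overlap the antisense gene *Gm17224*. At E11.5 it had 303.9, 370.6 and 216.8 CPM in the controls and 451.1, 688.4 and 481.8 CPM in the mutants. The highest control lay below the lowest mutant. The log2 fold change in mutant hearts at E11.5 was 0.87 (SE 0.22), which missed the threshold with an adjusted p of 0.197 (edgeR's quasi-likelihood test, Benjamini-Hochberg over all 12197 genes tested). DESeq2 put it at an adjusted p of 0.0135, and over 16 fits the adjusted p ran from 0.0135 to 0.612. The only male mutant library, replicate 3, had 0.70 on the log2 scale more *Casq1* than the mean of the 3 male controls. With sex in the model the log2 fold change was 0.72 (SE 0.28, edgeR, adjusted p = 0.218).

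At E12.5 the control hearts had 213.0, 226.5 and 405.9 CPM of *Casq1* and the mutant hearts 497.5, 461.0 and 707.3 CPM. Again no control reached the lowest mutant, but control replicate 3 came near to it. Mutant hearts had 1.99-fold more *Casq1*, a log2 fold change of 0.99 (SE 0.23). In the female libraries, 2 against 2, the log2 ratio was 1.41. Between the male mutant library and the male control library, which is control replicate 3, it was 0.29. *Casq1* was the 1 member of 9 tested that passed both thresholds (1.5-fold, with adjusted p not above 0.05), which 2.95% of all 12257 genes tested did, and since these values chose the genes, nothing is read from the count. *Casq1* was not past the thresholds with DESeq2 or in 1 fit of all 12 libraries, nor without control replicate 1 (log2 fold change 0.82), control replicate 2 (0.85), mutant replicate 1 (1.06) or mutant replicate 3 (0.78).

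From E11.5 to E12.5 the level of *Casq1* differed by less than its standard error, at -0.07 on the log2 scale (SE 0.25, edgeR, adjusted p = 0.867) in control and 0.04 (SE 0.21, edgeR, adjusted p = 0.957) in mutant hearts. The difference between both mutant effects, E12.5 less E11.5, was 0.12 on the log2 scale (SE 0.38, edgeR, adjusted p = 0.971), with a 95% interval of -0.62 to 0.86. This difference includes the E12.5 values that chose the genes. No conclusion is drawn from it here, nor for *Ryr1* and *Sln* below.

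*Casq2*, the calsequestrin of heart muscle, lies on chromosome 3 from 102086415 to 102146514 (+ strand). It had 113.9, 55.0 and 80.7 CPM in E11.5 control hearts and 66.2, 113.0 and 60.9 CPM in E11.5 mutant hearts, and the genotypes overlapped. At E12.5 it had 181.4, 175.5 and 125.9 CPM in control and 148.3, 152.1 and 152.4 CPM in mutant hearts, and the genotypes overlapped again. The log2 fold change in mutants was -0.05 (SE 0.29, edgeR, adjusted p = 0.981) at E11.5 and -0.08 (SE 0.12) at E12.5. In control hearts the rise was 1.94-fold, or 0.95 on the log2 scale (SE 0.23, edgeR, adjusted p = 0.0327), and every E12.5 library lay above every E11.5 library. In mutant hearts the log2 fold change was 0.91 (SE 0.21), also with no overlap, but the adjusted p of 0.139 (edgeR) missed the threshold, and DESeq2 gave 0.0037. Over 16 fits the adjusted p ran from 0.000633 to 0.531 in controls and from 0.0037 to 0.473 in mutants. In the controls it was 0.0903 without E11.5 replicate 3, 0.143 without E12.5 replicate 1 and 0.115 without E12.5 replicate 2, and in the mutants it was 0.014 without E11.5 replicate 2 (edgeR). With sex in the model the log2 fold change of the controls was 0.61 (SE 0.29, edgeR, adjusted p = 0.531), and the only male E12.5 control had 0.60 more on the log2 scale than the mean of the 3 male E11.5 controls.

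*Trdn* (chromosome 10 from 33083483 to 33476709, + strand) and *Jph2* (chromosome 2 from 163336242 to 163397993, - strand) passed the test in none of the 4 comparisons. At E11.5 *Trdn* had 105.6 ± 13.7 CPM (SD, n = 3) in control and 134.8 ± 22.7 in mutant hearts, and at E12.5 it had 140.0 ± 17.8 in control and 135.8 ± 6.03 in mutant hearts. At E11.5 the mutant mean was higher by 0.36 on the log2 scale (SE 0.16, edgeR, adjusted p = 0.491), and the stages differed in controls by 0.41 (SE 0.12, edgeR, adjusted p = 0.0563). *Jph2* ran from 176.1 to 273.6 CPM over all 12 libraries, and its largest log2 fold change in a comparison was 0.21 (SE 0.11, edgeR, adjusted p = 0.203), between the stages in controls. Both genes had no overlap of E11.5 and E12.5 controls and overlapping genotypes at both stages.

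*Ryr1*, the release channel of skeletal muscle, lies on chromosome 7 from 29003340 to 29125151 (- strand) and was read at a trace. It was below the minimum of 0.5 RPKM for the tests, so its fold changes come from the fit without that minimum. In E11.5 control hearts it had 32, 37 and 15 reads, or 2.09, 2.39 and 1.05 CPM, and in E11.5 mutant hearts 53, 27 and 16 reads, or 3.40, 1.64 and 1.38 CPM. The genotypes overlapped at this stage, with a log2 fold change of 0.22 (SE 0.44, edgeR, adjusted p = 0.924). In E12.5 control hearts it had 13, 18 and 12 reads, or 0.858, 1.02 and 0.738 CPM, and in E12.5 mutant hearts 50, 67 and 63 reads, or 3.35, 3.91 and 4.12 CPM. All 3 mutants stood above every control at E12.5, and the fitted difference was 4.36-fold, a log2 fold change of 2.12 (SE 0.30). It was 2.10 on the log2 scale between the female libraries and 2.18 between the single male libraries. With each library left out, it lay between 2.02 and 2.25. *Ryr1* and *Casq1* were 2 of 10 members past the thresholds in that fit, as were 2.94% of the 16789 genes tested, and these are again values that chose the genes.

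Between stages *Ryr1* was lower in every E12.5 than in every E11.5 control, with a log2 fold change of -1.08 (SE 0.41), and the test was not passed (edgeR, adjusted p = 0.0985). In mutant hearts the log2 fold change was 0.81 (SE 0.35, edgeR, adjusted p = 0.57) and the stages overlapped. Both mutant effects differed by 1.89 on the log2 scale (SE 0.54, edgeR, adjusted p = 0.56), the one at E12.5 being the higher. The low control values at E12.5 enter both the genotype and the stage comparison. An antisense gene, *Gm26604*, overlaps 864 exonic bases of *Ryr1*, and as no source used here says that the strand of the reads was used, reads from the pair cannot be told apart.

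*Ryr2*, the release channel of heart muscle, lies on chromosome 13 from 11553103 to 12106945 (- strand). It had 279.4, 410.0 and 278.9 CPM in E11.5 control, 370.7, 449.7 and 263.4 in E11.5 mutant, 678.3, 488.1 and 471.0 in E12.5 control and 418.5, 392.1 and 624.2 in E12.5 mutant hearts. Genotypes overlapped at both stages, whereas every E12.5 control lay above every E11.5 control. The mutant log2 fold change was 0.17 (SE 0.22, edgeR, adjusted p = 0.90) at E11.5 and -0.18 (SE 0.18) at E12.5. In control hearts *Ryr2* rose 1.69-fold between the stages, or by 0.76 on the log2 scale (SE 0.18, edgeR, adjusted p = 0.0308). In mutant hearts the log2 fold change between the stages was 0.40 (SE 0.23, edgeR, adjusted p = 0.646). Over 16 fits the adjusted p of the rise in controls ran from 0.000627 to 0.523. It was 0.0849 without E11.5 replicate 1, 0.0881 without E11.5 replicate 3, 0.139 without E12.5 replicate 1 and 0.09 without E12.5 replicate 2 (edgeR). With sex in the model it was 0.56 (SE 0.24, edgeR, adjusted p = 0.523), and the male E12.5 control had 0.55 more on the log2 scale than the 3 male E11.5 controls.

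*Atp2a2*, which encodes the cardiac pump SERCA2, lies on chromosome 5 from 122442702 to 122502225 (- strand) and had 1144.2 to 1491.8 CPM in control and 1186.6 to 1707.7 CPM in mutant hearts at E11.5. At E12.5 it had 1571.5 to 1715.7 CPM in control and 1284.7 to 2052.1 CPM in mutant hearts. Its mutant log2 fold change was 0.12 (SE 0.17, edgeR, adjusted p = 0.907) at E11.5 and -0.02 (SE 0.14) at E12.5. Between stages it was 0.33 (SE 0.11, edgeR, adjusted p = 0.0767) in controls, whose libraries did not overlap, and 0.17 (SE 0.20, edgeR, adjusted p = 0.806) in mutants. *Atp2a1*, which encodes the fast skeletal pump SERCA1 (chromosome 7 from 126445858 to 126463108, - strand), had 19 to 80 reads per library, with up to 5.17 CPM, and the groups overlapped in all 4 comparisons. Its log2 fold change in mutants was -0.65 (SE 0.52, edgeR, adjusted p = 0.784) at E11.5 and 0.10 (SE 0.42) at E12.5, where the 95% interval was -0.73 to 0.93. *Rabep2* overlaps 763 exonic bases of *Atp2a1* on the other strand, so that these few reads may belong to either gene.

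*Pln* (chromosome 10 from 53337686 to 53345999, + strand) had 635.4 to 933.6 CPM over all 12 libraries, with a mutant log2 fold change of -0.14 (SE 0.15, edgeR, adjusted p = 0.87) at E11.5 and -0.13 (SE 0.09) at E12.5, and the groups overlapped in all 4 comparisons. *Gm47644* covers 1644 and *Cep85l* 141 exonic bases of *Pln* on the other strand.

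*Sln*, the inhibitor of the pump in the atrium, lies on chromosome 9 from 53850251 to 53853844 (+ strand) and had the widest range over the groups. In E11.5 control hearts it had 30, 36 and 29 reads, or 1.96, 2.33 and 2.04 CPM, and in E11.5 mutant hearts 8, 14 and 6 reads, or 0.513, 0.851 and 0.516 CPM. All mutants lay below all controls. The log2 fold change was -1.71 (SE 0.37), a level 3.28-fold lower in mutants, and missed the threshold with an adjusted p of 0.136 (edgeR). It was 0.0473 with DESeq2 and 0.043 with limma on log2(RPKM + 0.5), within a range of 0.043 to 0.479 over the alternative fits. At E12.5 the control hearts had 1.45, 2.14 and 8.18 CPM and the mutant hearts 5.35, 5.02 and 10.2 CPM. Control replicate 3 lay among the mutants, so the genotypes overlapped, and the log2 fold change was 0.81 (SE 0.52), or 1.93 without that library. It is the only male control of this stage. In the female libraries, 2 against 2, the log2 ratio was 2.08, and between the single male libraries it was -0.61. The difference of the mutant effects between stages was 2.52 on the log2 scale (SE 0.81, edgeR, adjusted p = 0.827).

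Between stages *Sln* rose 10.6-fold in mutant hearts, from 0.627 ± 0.194 to 6.86 ± 2.90 CPM (SD, n = 3), by 3.41 on the log2 scale (SE 0.40, edgeR, adjusted p = 0.0107). Every E12.5 mutant lay above every E11.5 mutant. The adjusted p was 0.0687 (edgeR) without E12.5 mutant replicate 2, where the log2 fold change was 3.60. In control hearts the log2 fold change was 0.90 (SE 0.55, edgeR, adjusted p = 0.286) and was -0.22 without E12.5 replicate 3. Against the mean of the 3 male E11.5 controls, this male library had a log2 ratio of 1.96. The part of sex in this value was not tested. That library was the highest of the E12.5 controls in 4 of the 7 atrial markers (*Myl7*, *Myl4*, *Nr2f1* and *Nr2f2*), lay between the others in *Nppa* and *Kcnj3*, and was the lowest in *Bmp10*, at 14.6 CPM against 36.6 and 21.6. *Myl7*, the atrial regulatory light chain, stood at 1677.7 CPM against 893.9 and 1005.1, and *Nr2f1*, a regulator of atrial identity, at 24.9 against 6.73 and 8.97. The E12.5 mutants had 1524.5 to 1947.5 CPM of *Myl7* and 15.3 to 24.8 CPM of *Nr2f1*. At E11.5 *Myl7* overlapped between controls, at 1744.2 to 1895.7 CPM, and mutants, at 1567.4 to 2436.6 CPM. The 7 atrial markers summed to 5288 to 6296 CPM in control and 4823 to 7206 CPM in mutant hearts at E11.5, with no marker at 0. At E12.5 they summed to 4028 to 5247 CPM in control and 5094 to 6365 CPM in mutant hearts, and no atrial marker passed the test between genotypes. Their part in the level of *Sln* was not tested.

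**Figure D2:**
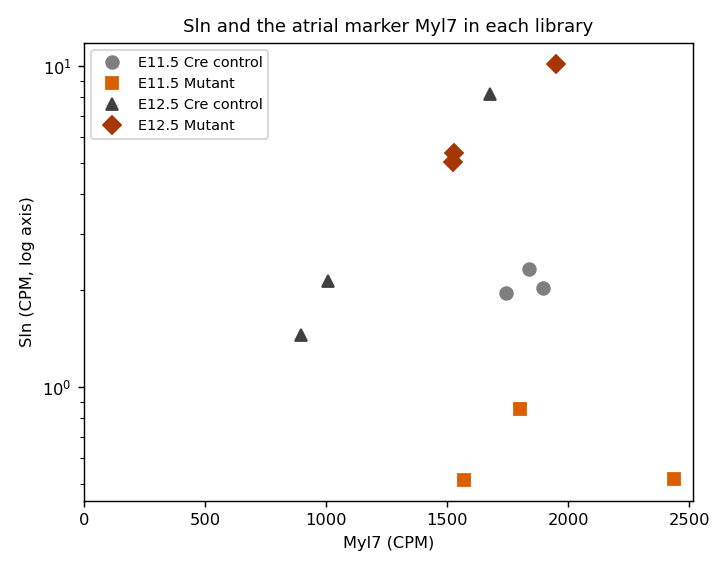
Level of *Sln* (CPM, log axis) against that of the atrial marker *Myl7* (CPM, linear axis from 0) in the 12 libraries, with 1 point per library and a symbol and colour for each group. The E11.5 mutants lie lowest in *Sln* at *Myl7* levels like those of the E11.5 controls, and the E12.5 control with 8.18 CPM of *Sln* lies among the E12.5 mutants in both genes.

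**Figure D3:**
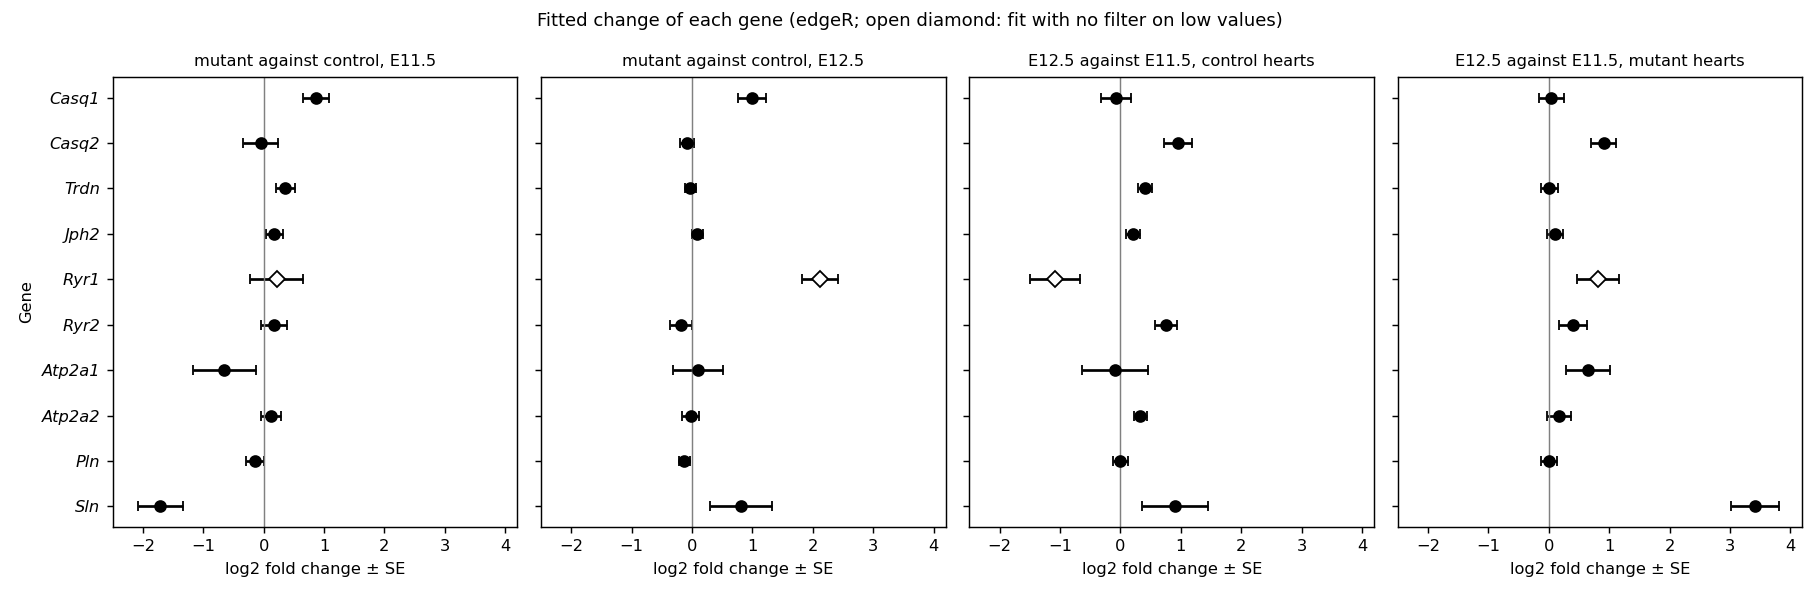
Fitted log2 fold change (point) with its standard error (bar) of the 10 genes in the 4 comparisons, from edgeR, with *Ryr1* as an open diamond from the fit without a minimum level. *Casq1* and *Ryr1* lie to the right of 0 in E12.5 mutants, *Casq2* and *Ryr2* in the stage comparison of controls, and *Sln* at 3.41 in that of mutants.

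Over the members as a list, 0 of 9 passed the thresholds at E11.5 in mutant hearts, where 0.115% of all genes did. Without the minimum level 73 of 17464 genes, or 0.418%, passed. Of the 9 members, 2 had an unadjusted p under 0.05 (edgeR), as did 1242 of all 12197 genes tested. DESeq2 called 2 members, *Casq1* and *Sln*, and 248 of the 12197 genes. From E11.5 to E12.5, 2 of 9 rose in control hearts (*Casq2* and *Ryr2*), where 5.28% of all genes were called in either direction (4.98% without the minimum). In mutant hearts 1 of 9 rose (*Sln*), against 0.556% of all genes (0.682% without the minimum). No member passed in the test of the difference between the mutant effects, nor did any gene with edgeR. That was 0.0% of 12270 genes with the minimum and 0.0% of 17827 without it. With the minimum, 1 of the 9 members and 551 of all genes had an unadjusted p under 0.05 (edgeR). DESeq2 called 41 of all genes and none of the members there. As that difference includes the E12.5 values that chose the genes, nothing is read from it for the members. The stage comparison of controls shares its E12.5 libraries with the genotype comparison of that stage, and likewise for the other pairs.

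Counted by separation of the libraries, 1 of 10 members was higher and 1 was lower in all E11.5 mutants, as 14.1% of genes with a read were apart in either direction. At E12.5 it was 2 of 10, both higher, against 22.5% of genes. Between stages 5 members were higher and 1 lower in controls, against 30.2% of genes apart, and 2 were higher in mutants, against 15.1%. The median log2 fold change of the 10 members was 0.14 in E11.5 mutants, 0.03 in E12.5 mutants, 0.27 between the stages in controls and 0.29 in mutants, beside 0.02, 0.01, 0.00 and -0.01 over all genes with reads.

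As a share of the RPKM of both calsequestrins, *Casq1* made up 77.8, 89.9 and 77.9% in E11.5 controls and 90.0, 88.9 and 91.2% in E11.5 mutants. The E11.5 controls overlapped with the mutants through replicate 2. At E12.5 the share was 60.7, 62.9 and 80.9% in controls and 81.5, 79.9 and 85.9% in mutants, and control replicate 3 lay among the mutants. In both genotypes the mean share was lower at E12.5, at 68.1 ± 11.1% against 81.9 ± 6.93% (SD, n = 3) in controls and 82.4 ± 3.10% against 90.0 ± 1.17% in mutants. *Ryr1* made up at most 1.08% of the RPKM of *Ryr1* and *Ryr2* in any library, and at E12.5 its mean was 0.179 ± 0.0450% in controls against 0.888 ± 0.182% in mutants. *Atp2a1* made up 0.127 to 0.530% of the RPKM of the 2 pump genes. Of the 3 families, the skeletal paralog was the more abundant one only for calsequestrin, in all 12 libraries. Of the 2 pump inhibitors, *Sln* made up 1.27 ± 0.251% in control and 0.417 ± 0.134% in mutant hearts at E11.5. At E12.5 it made up 2.39 ± 2.39% in control and 4.47 ± 2.30% in mutant hearts. No source used here says how reads that fit both paralogs were counted.

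**Figure D4:**
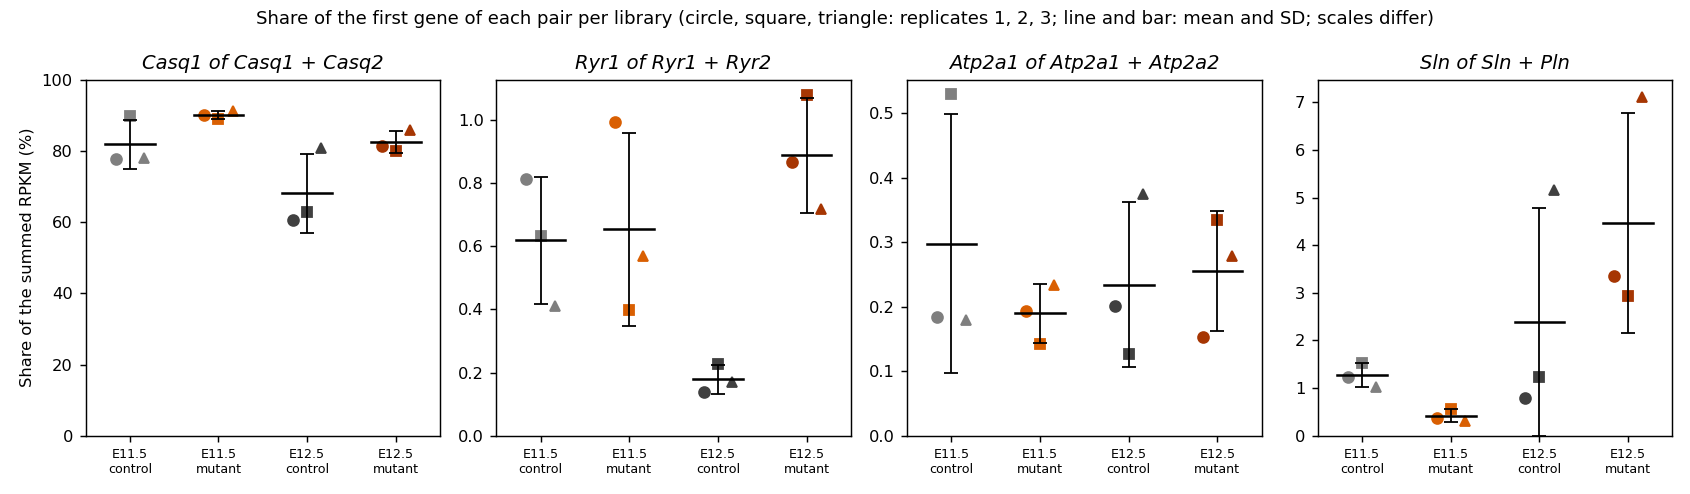
Share in percent of the first gene in the summed RPKM of each pair, per library, with a line and bar for the mean and SD of 3 libraries. The vertical scale runs to 100% for *Casq1* and only to the values seen for the other pairs. *Casq1* holds over 60% in every library, while *Ryr1*, *Atp2a1* and *Sln* hold at most 1.08, 0.530 and 7.12%.

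Markers of skeletal muscle were examined because *Casq1*, *Ryr1*, *Atp2a1* and *Sln* are among the genes used there. The muscle regulators *Myod1*, *Myf5*, *Myf6*, *Pax7* and *Pax3* had at most 17, 3, 2, 3 and 3 reads in any library and were at 0 in 6, 9, 4, 7 and 7 of the 12. *Myog* had up to 39 reads and *Myh3*, the embryonic myosin heavy chain, up to 176, both in E12.5 mutant replicate 2. At E12.5 the mutants lay above the controls in *Myod1* (0.268 to 0.992 against 0 to 0.226 CPM), *Myog* (0.803 to 2.28 against 0.553 to 0.677 CPM) and *Myh3* (0.937 to 10.3 against 0.123 to 0.677 CPM), as they did in *Ryr1*. The genotypes overlapped at this stage in *Myf5*, *Myf6*, *Pax7*, *Pax3*, *Chrna1*, *Myh8*, *Actn3* and *Mybpc1*, and *Ckm* was lower in every mutant. Of all genes with a read, 22.5% were apart in either direction in this comparison. The sum of the 12 markers was lower in mutants at both stages. Its values were 44.4 to 56.8 CPM in control and 29.8 to 35.2 CPM in mutant hearts at E11.5. By E12.5 they were 85.6 to 98.7 CPM in control and 78.2 to 83.8 CPM in mutant hearts. A few abundant genes made up most of this sum. *Ckm*, the muscle creatine kinase, had 63.6 to 68.9 CPM in control and 39.6 to 60.8 CPM in mutant hearts at E12.5, and at E11.5 it had 14.6 to 23.0 against 8.40 to 16.2 CPM. *Mybpc1*, a myosin-binding protein of slow muscle, had 19.4 to 23.4 CPM in control and 7.90 to 12.2 CPM in mutant hearts at E11.5, and the genotypes overlapped at E12.5. Of the 12 markers, 3 at E11.5 and 4 at E12.5 were abundant enough to be tested, and none passed between genotypes. The part of such cells in the levels of *Ryr1* and *Casq1* was not tested.

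*Casq1* and *Casq2* had different companions. The genes with the pattern over the 12 libraries most like that of *Casq1* were *Irx6* (Pearson r 0.944), *Sost* (0.926) and *Tmem189* (0.925), of 12270 genes compared on log2(CPM + 0.5). For *Casq2* they were *Myh7b* (0.94), which encodes a myosin of slow muscle and heart, *Sh2d4b* (0.911) and *Serac1* (0.91). Among the members, *Casq2* was closest to *Ryr2* (0.645). *Casq1* had a negative coefficient with *Pln* (-0.759), while its coefficient with *Casq2* was -0.106. The 12 points share 4 groups, so these coefficients describe the libraries and are not tested.

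Of 40 other genes of calcium handling, 37 were found and up to 35 tested. In E11.5 mutants 0 of 35 passed the thresholds with edgeR or DESeq2. Of all 12197 genes tested, edgeR called 0.115% and DESeq2 called 248, so nothing is read from this count. An unadjusted p under 0.05 (edgeR) was found for 1 of the 35 and for 1242 of all genes tested. In E12.5 mutants 1 of 34 passed, downwards, a share near the 2.95% of all genes called there. This gene was *Ryr3*, which encodes the ryanodine receptor of smooth muscle and brain. It had 39.8, 32.8 and 52.0 CPM in control and 16.6, 21.1 and 24.5 CPM in mutant hearts. All mutants lay below all controls, and the log2 fold change was -0.99 (SE 0.17), opposite in sign to that of *Ryr1*. The count was 2 without control replicate 2 or without control replicate 3, and 3 without mutant replicate 2. *Cacna2d1*, an auxiliary subunit of the L-type calcium channel, had 110.8, 88.2 and 82.9 CPM in E12.5 control and 60.7, 66.8 and 62.2 CPM in E12.5 mutant hearts. Its groups did not overlap, and its log2 fold change of -0.56 (SE 0.11), a level 1.47-fold lower, passed the threshold on the adjusted p but not that on the fold. *Ryr3* was also lower in every E11.5 mutant than in every E11.5 control, with a log2 fold change of -0.74 (SE 0.22, edgeR, adjusted p = 0.258).

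From E11.5 to E12.5, 5 of 35 of these genes rose in control hearts and none fell, where 5.28% of all genes were called. In mutant hearts edgeR called 0.556% and DESeq2 227 of all 12238 genes, and 1134 had an unadjusted p under 0.05 (edgeR). Of the 35 genes, 0 passed with edgeR (6 at an unadjusted p under 0.05) and 1 with DESeq2, *Ryr3*. Whether the stage changes of these genes differ between genotypes is not shown by these counts. Of the 5, 2 were release channels of internal stores and the other 3 were subunits of the L-type calcium channel at the cell membrane, which triggers release in heart muscle. *Ryr3* rose 2.79-fold, from 14.9 ± 2.45 to 41.5 ± 9.71 CPM (SD, n = 3), by 1.48 on the log2 scale (SE 0.18, edgeR, adjusted p = 0.0049). In mutant hearts *Ryr3* had a 2.33-fold higher level at E12.5, with no overlap of the stages and a log2 fold change of 1.22 (SE 0.22) that missed the threshold (edgeR, adjusted p = 0.0578). *Itpr2*, an inositol trisphosphate receptor, rose from 22.7 ± 7.39 to 48.4 ± 14.4 CPM, by 1.09 on the log2 scale (SE 0.24, edgeR, adjusted p = 0.0273). *Cacna1d*, the L-type channel of the pacemaker and atrium, rose from 16.6 ± 5.18 to 34.1 ± 7.54 CPM, by 1.04 on the log2 scale (SE 0.22, edgeR, adjusted p = 0.0252). *Cacna1c*, the main L-type channel of the heart, rose 2.02-fold (edgeR, adjusted p = 0.0192), and its auxiliary subunit gene *Cacna2d1* rose 1.61-fold (edgeR, adjusted p = 0.0134). None of the 9 tested genes of storage and junctions and neither of the 2 of reuptake passed in any of the 4 comparisons. Of all genes, 0.115% were called in E11.5 and 2.95% in E12.5 mutants. Between the stages, 5.28% were called in control and 0.556% in mutant hearts. No contrast between classes of genes is read from lists this small. The count of 5 was 3 without E11.5 control replicate 1, 2 without E11.5 control replicate 3, 1 without E12.5 control replicate 1 and 2 without E12.5 control replicate 2. With sex in the model it was 1, *Ryr3*, and the calls over all 12252 genes fell from 647 to 19.

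**Figure D5:**
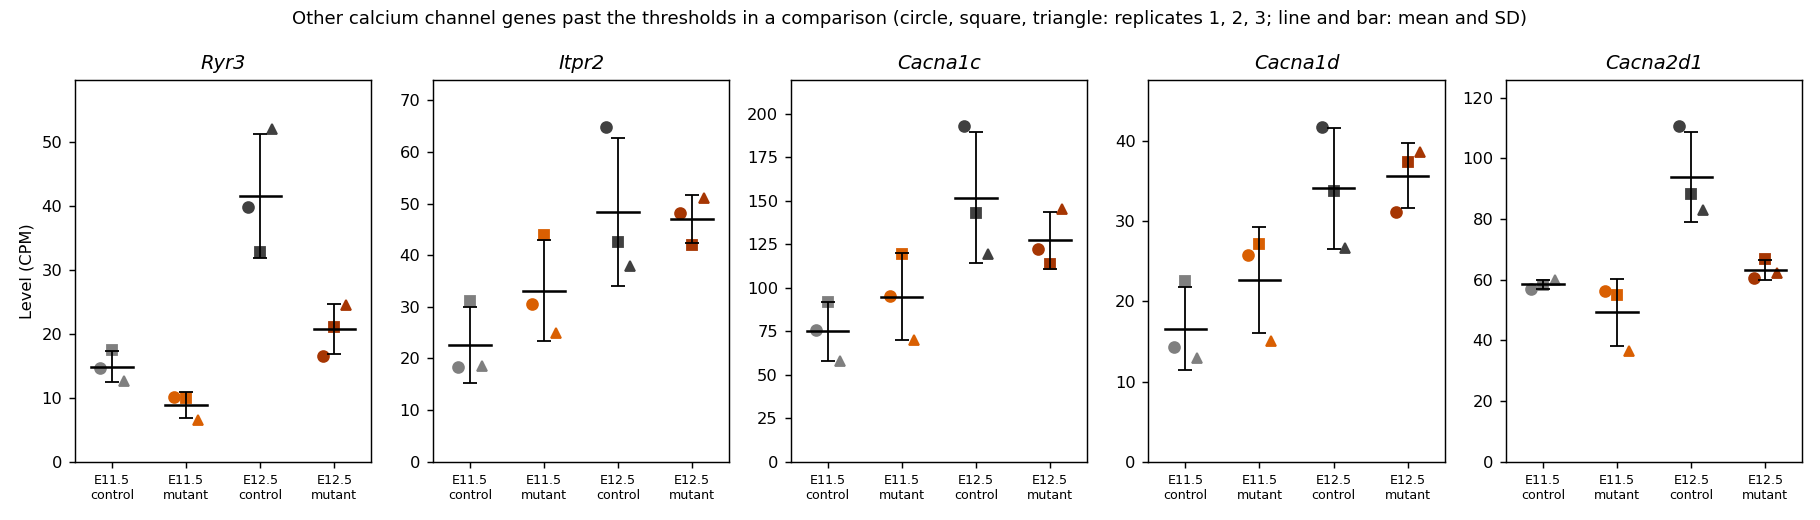
Level in CPM (linear axis from 0) of the 5 other calcium channel genes that passed the thresholds in a comparison, in each library, with a line and bar for the mean and SD of 3 libraries. All 5 are higher in every E12.5 than in every E11.5 control, and *Ryr3* and *Cacna2d1* are lower in every E12.5 mutant than in every E12.5 control.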

How the data were processed

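RNA-seq of 12 heart libraries (4 groups of 3) was used. Per the labels and the paper, reads were aligned with Bowtie2 (version 2) to mm10 and normalised with DESeq; the counting program, annotation and use of strand are not given in the sources used here, and the number of hearts per library is not stated, so p-values measure the spread between these libraries. Values deposited as RPKM are a score: each was a whole count multiplied, not divided, by gene length and by a library factor. The authors also deposited the plain mean of the 3 counts of each group, which need not be whole and was therefore read as an expected count in unit only. From both, whole counts of 17827 genes were recovered (largest distance from a whole number 4.37e-10); 1597 of 19424 genes had no reads. The authors' fold changes, z scores and p-values, held in the same tables, were not used. Overlapping genes counted together by the authors (64 identifiers) hold 0.227% of counts.

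Genes with mean RPKM of at least 0.5 were tested with edgeR 4.0.16 (quasi-likelihood, TMM) in R 4.3.3, called where the Benjamini-Hochberg adjusted p did not exceed 0.05 and the change reached 1.5-fold (no fold threshold for the interaction over all libraries). SE is the log2 fold change divided by the root of F, and 95% intervals are normal approximations. Alternatives used DESeq2 1.42.0, limma 3.58.1 with pseudocounts of 0.5 and 0.1, other filters and scaling, the replicate number as a block and each library left out; sex as a covariate and the combinations for *Ryr1* were added after the data were seen. The fits were tested on simulated data. An exact permutation of 3 against 3 cannot go under p = 0.1, so none was run. Members, gene lists and tests were chosen with earlier results of these data known. Named were all members, other pathway genes past the thresholds (the 3 largest changes per comparison in full), the 3 genes most like *Casq1* and *Casq2*, and the fixed markers. Coordinates are those of the files (GRCm38), and overlaps are from GENCODE vM21.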

Additional observations from a re-analysis of the deposited data

How the results depend on the processing

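Counts of called members moved with the fit. In E11.5 mutants, 0 with edgeR became 2 with DESeq2, 1 with limma at a pseudocount of 0.5 and 1 with the replicate block (*Casq1*). In E12.5 mutants, 1 became 0 with DESeq2, 0 in 1 fit of all 12 libraries and 2 with no filter on low values. Between stages, 2 in controls became 0 in 1 fit of all 12 libraries and 0 with a sex term, and 1 in mutants became 2 with DESeq2. Calls over all genes moved too. Between control stages 647 of 12252 became 19 with a sex term. With DESeq2, 68 of 12238 became 227 between mutant stages and 14 of 12197 became 248 in E11.5 mutants. With 1 library left out, the counts of members were 0 to 0 in E11.5 mutants and 0 to 2 in each of the other 3 comparisons. Of the other pathway genes, 1 in E12.5 mutants became 2 with no fold threshold and 0 at a mean RPKM of at least 5, and 1 to 3 with a library left out. For controls between stages, 5 became 8 with no fold threshold, 2 at a mean RPKM of at least 5 and 1 with a sex term, and 1 to 7 with a library left out. For mutants between stages, 0 became 1 with DESeq2, with no filter, in the fit of all 12 and with a sex term, and 0 to 1 with a library left out.

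Small changes crossed 0. With a sex term, the log2 fold change was 0.46 for *Casq1*, 0.60 for *Atp2a1* and -0.14 for *Pln* between control stages, and in E11.5 mutants -0.42 for *Ryr1* (no filter), -0.27 for *Ryr2*, -0.13 for *Atp2a2* and 0.02 for *Pln*. *Atp2a1* between control stages was 0.02 and 0.06 with limma at both pseudocounts and 0.01 with the block. *Pln* was -0.01 between control stages with DESeq2 and median-ratio scaling, and between mutant stages 0.00 with DESeq2, median-ratio scaling and a sex term, 0.01 with no filter and in the fit of all 12, 0.02 at a mean RPKM of at least 5, and 0.03 with limma at both pseudocounts. With 1 library left out, the log2 fold change of *Casq1* ran from -0.44 to 0.10 between control stages and -0.17 to 0.24 between mutant stages, and its difference of mutant effects from -0.10 to 0.48. In E11.5 mutants the ranges were -0.37 to 0.25 for *Casq2*, -0.29 to 0.45 for *Ryr1*, -0.01 to 0.38 for *Ryr2* and -0.02 to 0.23 for *Atp2a2*. In E12.5 mutants they were -0.22 to 0.01 for *Casq2*, -0.42 to 0.01 for *Ryr2*, -0.23 to 0.62 for *Atp2a1*, -0.24 to 0.12 for *Atp2a2* and -0.11 to 0.07 for *Trdn*. Between control stages they were -0.62 to 0.78 for *Atp2a1*, -0.09 to 0.13 for *Pln* and -0.22 to 1.29 for *Sln*, and between mutant stages -0.04 to 0.31 for *Atp2a2*, -0.07 to 0.09 for *Pln* and -0.12 to 0.10 for *Trdn*. The cause of these shifts was not tested.

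As shares of reads, not per length, *Casq1* made up 87.3% of the calsequestrins in E11.5 and 78.2% in E12.5 mutants, *Atp2a1* 0.123% of the pumps in E11.5 mutants, and *Sln* 0.268% of both inhibitors in E11.5 controls, 0.0877% in E11.5 and 0.978% in E12.5 mutants.

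Replicate numbers did not pair the libraries in every case. Same-numbered libraries correlated at -0.028, 0.425 and 0.293 in the E11.5 comparison, where replicates 2 and 3 correlated best with their own number. In that of E12.5 the values were 0.023, 0.059 and 0.023, and only replicate 2 did so. The block is therefore only a check. *Ryr1*, *Sln* and *Atp2a1* had few reads, which limits their precision.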
